A study of Mus musculus with 12 samples.

Results

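Transcripts of the replicative MCM helicase and of the factors that load and start it were followed in hematopoietic stem cells (HSCs) sorted from mouse bone marrow. The set was named gene by gene and held 9 of the 55335 genes in the count table: the 6 subunits of the MCM ring (Mcm2, Mcm3, Mcm4, Mcm5, Mcm6 and Mcm7), the loading factors Cdc6 and Cdt1, and the firing factor Mcm10. All 9 genes had enough reads to be tested. They were chosen by their role, with earlier results of these data known. Mcm2, Mcm4 and Mcm5 are also of interest. The paper states that YTHDC1, the nuclear reader of m6A in RNA, modulates their expression in acute myeloid leukemia cells.

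Before S phase, the origin recognition complex and Cdc6 bind an origin of replication, and Cdt1 brings the MCM ring to it, which licenses the origin. Mcm2 to Mcm7 form the inactive ring around DNA, and in S phase Cdc45 and the GINS proteins join it to make the active helicase, a step in which Mcm10 acts. Most adult HSCs are quiescent, and these genes are known for being transcribed as cells leave quiescence, largely through E2F factors.

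The Ythdc1 KO samples came from C57B6 mice with floxed Ythdc1 alleles and the Mx1-Cre transgene, and the wild type samples from Ythdc1+/+ mice that also carried Mx1-Cre. Mx1-Cre is driven by an interferon-inducible promoter, so all animals had been injected with pIpC, a double-stranded RNA mimic that induces it and is not limited to HSCs. Each genotype had 6 libraries, made in pairs under 3 sample numbers (KO176, KO177 and KO209 against WT178, WT180 and WT207). What a number stands for (1 mouse, pooled mice or 1 sort) is not given in the labels. The labels give no age either, and the methods describe isolation of HSCs from young adult donor mice.

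The 12 libraries held 20809936 to 24563170 counted read pairs, and the pairs of libraries were summed to 42098649 to 48095239 per sample. Paired libraries were not 1 library deposited again, since their counts differed beyond Poisson error (5.71 to 19.6 times the variance it allows). Nothing in the labels says that numbers are separate animals, so the spread behind each p-value may be technical. Ythdc1 itself was 56.8, 69.6 and 69.6 CPM (counts scaled to library size) in KO176, KO177 and KO209 and 76.0, 72.6 and 92.5 CPM in WT178, WT180 and WT207. The samples did not overlap, but the log2 difference of -0.30 (SE 0.13) did not pass edgeR's quasi-likelihood test (adjusted p = 0.521), and reads on exons outside the deleted part count too, so the value is no test of the labels. Of the 12 HSC marker genes, 11 were lower in Ythdc1 KO samples and their summed level was 808 to 906 CPM against 998 to 1164 CPM. Kit and Ly6a were well expressed, at 161 to 265 CPM and 152 to 526 CPM over the 6 samples, and of the lineage markers Cd8a and Itgam were at or under 0.198 CPM and at or under 3.09 CPM and Ly6g at 6.16 to 11.6 CPM. Cd48 and Flt3, surface markers of progenitors next to HSCs, were at 242 to 389 CPM and 328 to 451 CPM, so the transcripts do not mark the samples as free of progenitors. All 6 tested genes of the lineage and progenitor list had a higher fitted level in Ythdc1 KO (summed 845 to 978 against 748 to 870 CPM), none at an unadjusted p under 0.05.

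All 9 licensing genes had a higher fitted level in Ythdc1 KO than in wild type HSCs, by a median log2 difference of 0.25 (1.19-fold), against a median of -0.01 over all 18234 genes tested. None of the 9 passed edgeR's quasi-likelihood test at an adjusted p of 0.05, where 25 genes or 0.137% of all tested genes did, and DESeq2 and limma's voomLmFit called none of them either. At an unadjusted p under 0.05, 2 of the 9 were higher, Mcm10 and Mcm4, against 4.28% of all tested genes. The same 2 genes were the ones whose 3 Ythdc1 KO samples all lay above the 3 wild type samples, a pattern that 7.75% of all tested genes showed in this direction. Mcm10 and Mcm4 thus separated by genotype, while in the other 7 genes the samples of both genotypes were interleaved.

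**Figure D1:**
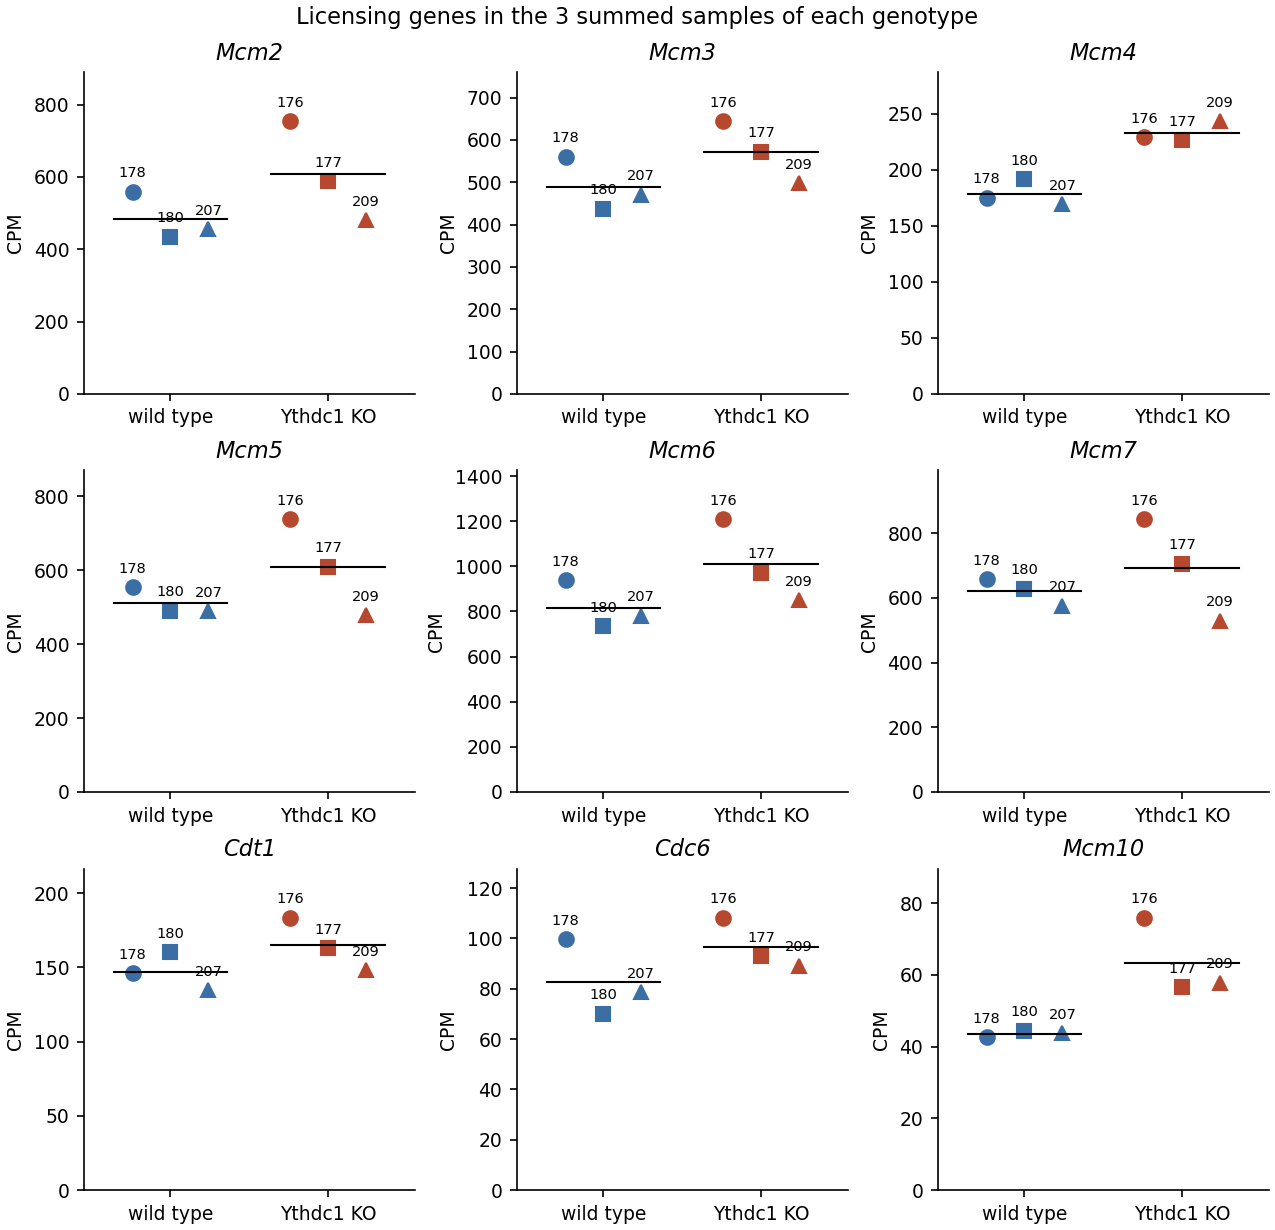
CPM of each licensing gene (y axis, from 0) in the 3 wild type samples (blue) and the 3 Ythdc1 KO samples (red), each point being 2 summed libraries labelled with its sample number and each black line a mean. Mcm4 and Mcm10 are the 2 genes in which all red points lie above all blue points, and KO176 is the highest sample in 8 of the 9 panels.

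The 5 genes Mcm2, Mcm3, Mcm5, Mcm6 and Mcm7 make up the ring together with Mcm4. Mcm2 (chr6:88883474-88898780, minus strand, coordinates of mm10) was 754, 588 and 480 CPM in KO176, KO177 and KO209 and 559, 434 and 455 CPM in WT178, WT180 and WT207. KO176 stood above every other sample, and KO209 lay below WT178. The fitted log2 difference was 0.33 (SE 0.18, edgeR adjusted p = 0.596).

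Mcm6 (chr1:128331590-128359664, minus strand) carries another of the ring's ATPase sites. It was 1208, 972 and 849 CPM in the Ythdc1 KO samples and 938, 735 and 780 CPM in the wild type samples, in the same order of samples. Its samples ranked as those of Mcm2 did, with WT178 between KO177 and KO209. The log2 difference was 0.30 (SE 0.16, edgeR adjusted p = 0.597). Mcm3 (chr1:20802968-20820312, minus strand) had this order as well, at 644, 572 and 497 CPM against 560, 437 and 471 CPM, with a log2 difference of 0.22 (SE 0.15, edgeR adjusted p = 0.668).

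Mcm5 (chr8:75109569-75128439, plus strand) was 738, 609 and 478 CPM in the Ythdc1 KO samples and 554, 490 and 489 CPM in the wild type samples. Its lowest value of all was in KO209, below every wild type sample. The log2 difference was 0.25 (SE 0.16, edgeR adjusted p = 0.667). Mcm7 (chr5:138164583-138172422, minus strand) was 842, 705 and 529 CPM against 657, 628 and 576 CPM, again with its lowest value in KO209. Its log2 difference of 0.16 was the smallest of the 9 and lay within 1 standard error of 0 (SE 0.17, edgeR adjusted p = 0.802).

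Mcm4 (chr16:15623897-15637400, minus strand) departed from this pattern. It was 229, 226 and 243 CPM in KO176, KO177 and KO209 and 175, 192 and 169 CPM in WT178, WT180 and WT207. The groups did not overlap, KO209 was the highest sample instead of the lowest Ythdc1 KO sample, and KO176 was not set apart. The log2 difference was 0.38 (1.30-fold, SE 0.11, edgeR adjusted p = 0.302), and an exact two-sided permutation test of the 3 against 3 samples gave p = 0.1, the smallest this design allows. The separate libraries overlapped, since those of KO177 were 270 and 181 CPM, a log2 gap of 0.58 that was the widest for any of the 9 genes, while wild type libraries were 170 to 192 CPM. Library values were scaled among the 12 libraries and therefore differ slightly from the summed ones. By qPCR, the paper reported no change of MCM4 in HSCs lacking YTHDC1. By gene set enrichment of its RNA-seq, it reported higher expression of cell division and DNA replication genes in such HSCs. It also reported larger shares of Ki67-positive and BrdU-positive cells among long-term HSCs.

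Cdc6, the ATPase that with the origin recognition complex recruits the ring, is at chr11:98907801-98923940 (plus strand). It was 108, 92.9 and 89.0 CPM in the Ythdc1 KO samples and 99.7, 70.0 and 78.6 CPM in the wild type samples, with WT178 second only to KO176. The log2 difference was 0.23 (SE 0.15, edgeR adjusted p = 0.665). Cdt1 (chr8:122568015-122573554, plus strand), which escorts the ring to the origin, was 184, 163 and 148 CPM against 146, 160 and 135 CPM. Here the highest wild type sample was WT180, just under KO177, and the log2 difference was 0.17 (SE 0.12, edgeR adjusted p = 0.705).

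Mcm10 (chr2:4989714-5012791, minus strand), which despite its name is not a subunit of the ring, had the largest difference of the 9. It was 76.0, 56.6 and 57.8 CPM in KO176, KO177 and KO209 and 42.6, 44.5 and 43.7 CPM in WT178, WT180 and WT207. The wild type samples were within 2 CPM of each other, and every Ythdc1 KO sample lay above them. The log2 difference was 0.54 (1.45-fold, SE 0.13), the edgeR adjusted p was 0.250, and the exact two-sided permutation test gave p = 0.1. The separate libraries did not overlap either, at 49.6 to 76.4 CPM in the 6 Ythdc1 KO libraries and 40.1 to 47.2 CPM in the 6 wild type libraries.

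**Figure D2:**
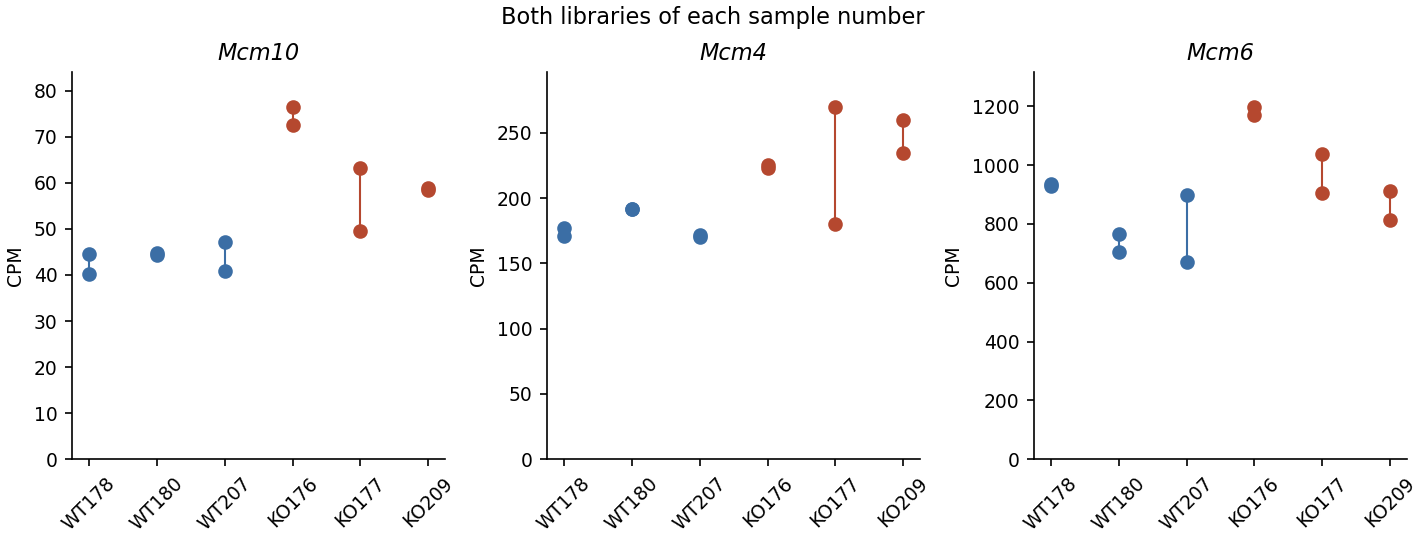
CPM of Mcm10, Mcm4 and Mcm6 (y axes, from 0) in both libraries of each sample number (points joined by a line), wild type in blue and Ythdc1 KO in red. The libraries of Mcm10 are apart by genotype, the 2 Mcm4 libraries of KO177 lie at 270 and 181 CPM, and those of Mcm6 in WT207 at 898 and 671 CPM.

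The order of samples was shared by most of the set. KO176 was the highest sample for 8 of the 9 genes and KO209 the lowest Ythdc1 KO sample for 7. The summed CPM of the 6 ring subunits was 4415, 3672 and 3077 in KO176, KO177 and KO209 and 3444, 2916 and 2940 in WT178, WT180 and WT207, so that KO209 was below WT178. Leaving out KO176 lowered the median log2 difference of the 9 genes from 0.25 to 0.14 and brought Mcm7 to -0.002, while leaving out KO209 raised the median to 0.35 and the number of genes at an unadjusted p under 0.05 from 2 to 7, while the share of all tested genes that were higher at that threshold went from 4.28% to 7.78%. None of the 9 passed the adjusted threshold in either case. In bulk samples a smaller share of cells transcribing a gene and less of its RNA per cell cannot be told apart.

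Sample numbers fell into a lower range (KO176, KO177, WT178 and WT180) and a higher one (WT207 and KO209), which the labels do not explain. Among the lower numbers, 2 samples against 2, all 9 genes were higher in Ythdc1 KO by a median log2 difference of 0.31, and 8 of them without overlap, Cdc6 being the exception, a pattern that 20.8% of all tested genes showed in this direction. Between KO209 and WT207, 1 sample against 1 with no replicate, the median was 0.12, 7 genes were higher, and Mcm5 and Mcm7 were lower by 0.03 and 0.12. Mcm4 was the gene with the larger difference in the higher range, 0.52 against 0.31. Mcm10 had 0.59 in the lower range and 0.40 in the higher.

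**Figure D3:**
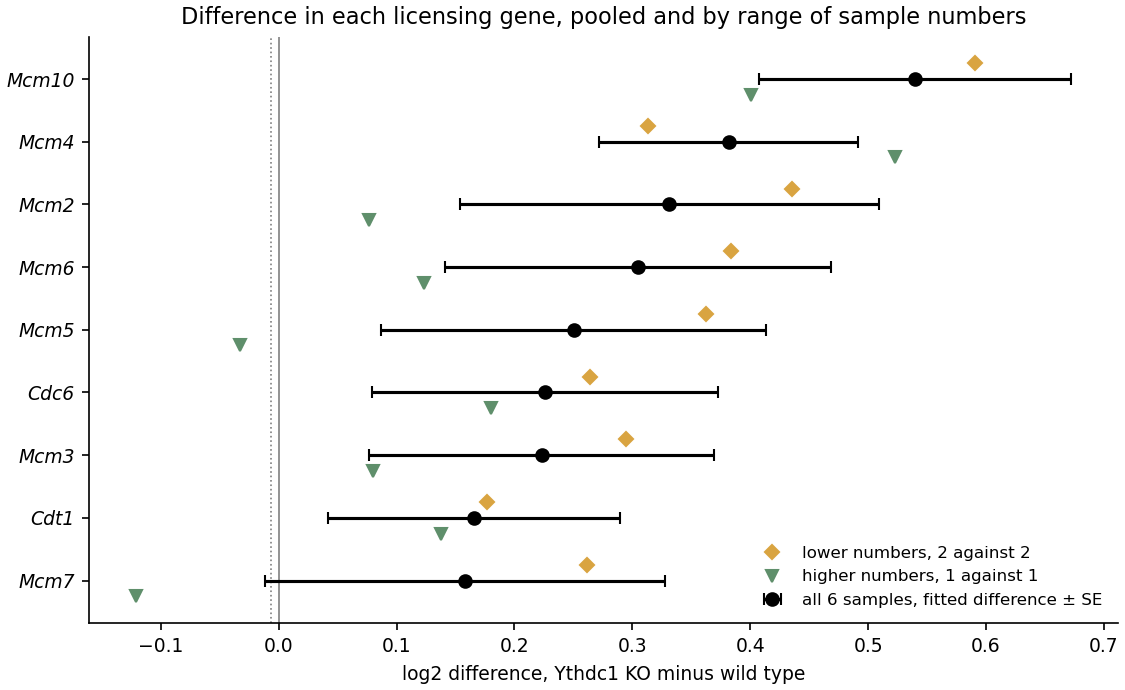
Log2 difference between Ythdc1 KO and wild type (x axis) for each licensing gene, as fitted over all 6 samples with its standard error (black), and within the lower (diamonds) and the higher (triangles) sample numbers. All black points lie between 0.16 and 0.54, Mcm5 and Mcm7 fall below 0 in the higher numbers, and Mcm4 is the gene whose triangle lies to the right of its diamond.

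Transcripts of other cells moved with these samples, and their part in the results above was not tested. All 12 granulocyte genes had a higher fitted level in Ythdc1 KO, with 3 at an unadjusted p under 0.05 (4.28% of all tested genes) and none called, and their summed level was highest in KO176, at 24736 CPM against 11051 to 15086 CPM in the other 5 samples. Mpo, a primary granule enzyme also made by myeloid progenitors, was 10914 CPM in KO176 and 2222 CPM in KO209, and weighed heavily in that sum. S100a8, S100a9, Ngp, Chil3 and Fcnb were instead highest in KO209, Ngp at 3445 CPM against 3307 CPM in KO176. The remaining granulocyte genes were highest in KO176. All 10 monocyte and macrophage genes were higher as well (summed 1549 to 1806 against 1197 to 1477 CPM), as were 11 of 12 B cell genes (1623 to 3369 against 747 to 953 CPM). Ighm made up most of the B cell sum, at 1313 to 2771 against 581 to 741 CPM. Jchain had the largest log2 difference of the B cell genes (1.98, against 1.49 for Ighm). Of the 11 tested stromal and endothelial genes, 9 were higher and 3 were called (Lepr, Adipoq and Sparc) where 0.137% of all tested genes were, all 3 under 8 CPM in every sample. The erythroid genes summed to 64.0 to 74.7 against 53.7 to 81.4 CPM.

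Levels can be compared between genes only per length, so TPM was computed from the counts and the exon lengths in the table. TPM is the share of all transcripts after division by length. The length used covers all annotated exons of a gene, 6956 bases for Mcm2 and 3589 for Mcm4. It can exceed the length of the transcripts present, which lowers the TPM, so the order of genes below depends on it. In wild type the order was Mcm6 (474 ± 58.8 TPM, SD, n = 3), Mcm7 (379 ± 11.98), Mcm3 (353 ± 44.4), Mcm5 (346 ± 22.3), Mcm2 (188 ± 24.4), Mcm4 (135 ± 5.62), Cdt1 (127 ± 6.54), Cdc6 (42.8 ± 7.62) and Mcm10 (15.4 ± 0.797). Mcm7 and Mcm3 overlapped with each other in both genotypes, and so did Mcm3 and Mcm5, while Mcm6 lay above Mcm7 and Mcm5 above Mcm2 in all 6 samples. Mcm4 and Cdt1 overlapped in wild type and were apart in Ythdc1 KO, where Mcm4 was 171 ± 24.3 and Cdt1 137 ± 2.49 TPM. The ring subunits assemble in equal numbers. Yet Mcm4 transcripts were 2.47-fold below the geometric mean of the other 5 subunits in wild type and 2.24-fold below it in Ythdc1 KO. These relative levels overlapped between genotypes. They were log2 -1.46, -1.21 and -0.81 in KO176, KO177 and KO209, and -1.50, -1.10 and -1.31 in WT178, WT180 and WT207. Mcm4 was the lowest subunit transcript in every sample, and the widest relative shift was again in KO209, where it was 198 TPM and Mcm2 202 TPM.

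**Figure D4:**
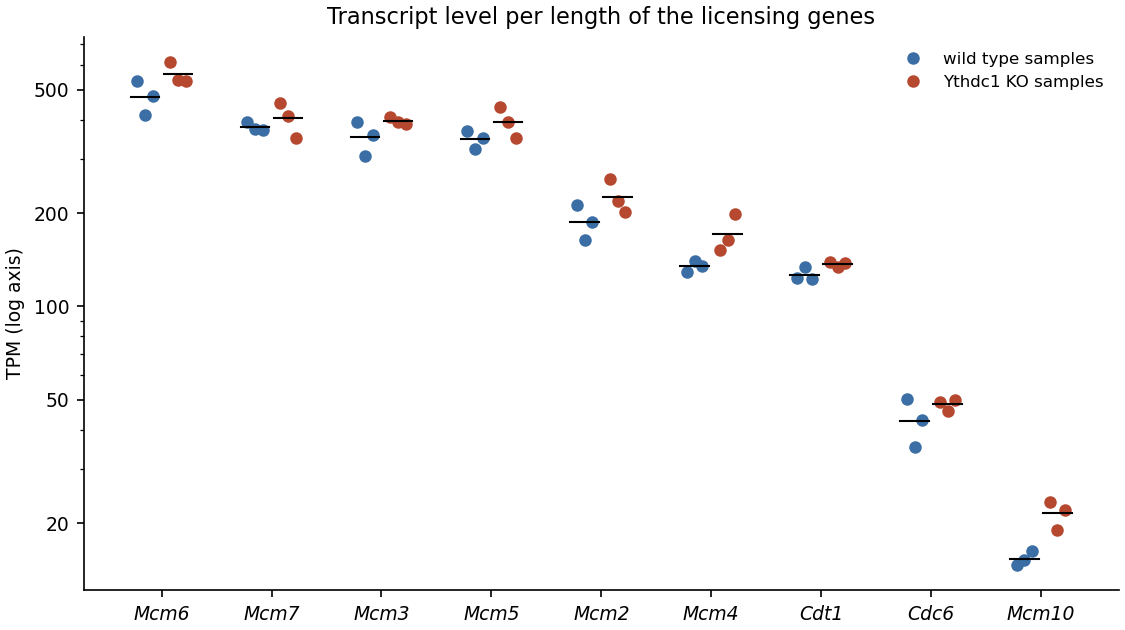
TPM on a log axis (y) for each licensing gene in the wild type (blue) and Ythdc1 KO (red) samples, with black lines for the means. The level falls from 474 TPM for Mcm6 to 15.4 TPM for Mcm10 in wild type, and Mcm4 is the lowest of the 6 ring subunits in every sample.

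TPM was computed without the edgeR scaling factor, which was lowest in KO176 (0.901) and raised its CPM relative to the others. On the TPM scale Mcm10 stayed apart, at 19.0 to 23.5 TPM in Ythdc1 KO and 14.6 to 16.2 TPM in wild type, and so did Mcm4, at 152 to 198 and 129 to 140 TPM. Mcm6 and Cdt1 then had no overlap either, but by less than 1 TPM (532.5 over 531.9 TPM, and 134.2 over 134.0 TPM). Mcm7 relative to the other 5 subunits was lower in Ythdc1 KO (log2 0.17 to 0.43) than in wild type (0.43 to 0.59), with KO176 at 0.4275 and WT178 at 0.4287 nearest to each other.

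Mcm7 is also the gene in which the counts are least secure. Of its 4426 exon bases, 12.6% are shared with Ap4m1, Cops6, Mir25 and Mir93, reads over shared bases were left out under the counter's default, and the 2 protein-coding neighbours lie on the opposite strand in data counted without strand. The other 8 licensing genes share no exon bases with another gene. The locus holds a microRNA cluster, shown here because its hairpins lie within Mcm7. In the mature sequences from RefSeq (GRCm38.p6), 5′ to 3′, the capitals mark the seed (bases 2 to 8), which miR-93-5p and miR-106b-5p share:
mmu-miR-25-3p: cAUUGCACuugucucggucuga
mmu-miR-93-5p: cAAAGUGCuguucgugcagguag
mmu-miR-106b-5p: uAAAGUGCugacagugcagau

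Mir25 (chr5:138165321-138165404) and Mir93 (chr5:138165523-138165610) had 0 counts in all 12 libraries, and any read there would touch an Mcm7 exon and be assigned to neither gene. Mir106b (chr5:138165737-138165818), outside the Mcm7 exons, had 0 or 1 count per library and 3 counts in all. No level of the mature microRNAs can be read from these libraries, which were made from polyadenylated RNA.

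The 250 bases before the transcription start were read for 8 of the 9 genes from RefSeq promoters (GRCm38.p6), in 9 windows since Mcm7 has 2. Mcm4 had no entry. They were searched on both strands for 4 E2F spellings (TTTCCCGC, TTTCGCGC, TTTGCCGC and TTTGGCGC) and for CCAAT, the core letters of the NF-Y site. An E2F spelling was in 4 of the 9 windows (Mcm5, Mcm6, Cdc6 and 1 of Mcm7), against 1.86% of all 32851 promoter windows and 3.01% of those of tested genes. CCAAT was in 7 of the 9, against 33.8% of all windows. The windows of Mcm5 and Mcm6, which hold both, and of Mcm10, whose levels separated by genotype and which holds CCAAT alone, are printed 5′ to 3′ in the direction of transcription, with the matches in capitals:
Mcm5, chr8:75109259-75109508 (+): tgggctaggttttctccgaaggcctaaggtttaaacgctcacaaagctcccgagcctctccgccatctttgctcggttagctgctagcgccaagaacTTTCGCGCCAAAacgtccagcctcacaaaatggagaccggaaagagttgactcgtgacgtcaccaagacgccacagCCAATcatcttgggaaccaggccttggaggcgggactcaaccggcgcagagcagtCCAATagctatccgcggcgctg
Mcm6, chr1:128359706-128359955 (-): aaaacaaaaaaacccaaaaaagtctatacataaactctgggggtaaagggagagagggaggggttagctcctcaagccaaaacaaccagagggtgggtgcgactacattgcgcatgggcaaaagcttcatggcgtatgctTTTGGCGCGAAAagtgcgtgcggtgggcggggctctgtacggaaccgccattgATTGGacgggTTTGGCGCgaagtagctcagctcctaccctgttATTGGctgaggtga
Mcm10, chr2:5012792-5013041 (-): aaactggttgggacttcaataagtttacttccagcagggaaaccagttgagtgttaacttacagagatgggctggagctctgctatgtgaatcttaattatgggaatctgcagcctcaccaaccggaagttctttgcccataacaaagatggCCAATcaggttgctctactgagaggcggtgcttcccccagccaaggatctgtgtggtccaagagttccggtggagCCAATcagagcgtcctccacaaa

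In Mcm5, overlapping E2F spellings began 153 and 149 bases before the start and CCAAT 77 and 22 bases before it. In Mcm6, overlapping E2F spellings began 110 and 106 bases before the start and another 47 bases before it, and CCAAT on the other strand began at 57 and 14. In Mcm10, CCAAT began at 98 and 23. Mcm3 held CCAAT 3 times and Mcm2 once, and the Cdt1 window held neither motif. These are matches of letters, and binding was not measured.

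The 5 genes outside the set whose centred log2 CPM over the 12 libraries was nearest to the mean profile of the 6 ring subunits were Cd2bp2, Racgap1, Gspt1, Pold1 and Ghitm. Their root mean square differences from it were 0.037 to 0.055, against a median of 0.24 over the 9131 genes compared, and 0.20 for a gene with no variation at all. Racgap1 acts in cytokinesis and Pold1 is the catalytic subunit of DNA polymerase delta. Of the subunits, which entered the profile themselves, Mcm3 (0.064) and Mcm6 (0.075) were nearest to it, and Mcm4 (0.22) was farther from it than a gene with no variation. Mcm10 was at 0.19. The 12 libraries share pairs and depth, so these values are descriptions.

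The lists of other genes around licensing held 80 genes, of which 79 were tested. Of these, 67 had a higher and 12 a lower fitted level in Ythdc1 KO, with a median log2 difference of 0.21. None was called, against 0.137% of all tested genes. With an unadjusted p under 0.05 there were 21 on the higher side, where 4.28% of all tested genes fell, and 1 on the lower side, where 5.2% did. In the origin recognition list, which holds the complex that marks origins, 6 of 7 genes were higher. Orc1, its largest subunit, was 18.2 ± 2.15 CPM in Ythdc1 KO and 13.6 ± 0.661 CPM in wild type (log2 0.42), and Orc2 49.3 ± 3.71 against 39.8 ± 1.90 CPM (log2 0.31). Orc3 and Orc4 had log2 differences of 0.27 and 0.18.

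All 13 genes that turn the loaded ring into a helicase had a higher fitted level, by a median log2 difference of 0.25, and 8 did so without overlap, against 7.75% of all tested genes. The 4 with the smallest p were the firing factor Recql4 (11.2 ± 1.88 against 7.79 ± 0.674 CPM), Dbf4, the activator of the Cdc7 kinase (45.6 ± 5.66 against 37.0 ± 1.42 CPM), Ticrr, which brings Cdc45 to origins (25.02 ± 0.450 against 20.77 ± 1.02 CPM) and Wdhd1, which ties the helicase to DNA polymerase alpha (71.9 ± 11.2 against 57.2 ± 6.37 CPM). Their log2 differences were 0.52, 0.30, 0.27 and 0.33.

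The 14 genes listed as controls of licensing, most of which limit it or remove its factors while Kat7 promotes loading of the ring and Mcmbp binds its subunits, also all had a higher fitted level, by a median log2 difference of 0.25. They include geminin (Gmnn), the inhibitor of Cdt1, at 139 ± 10.1 against 113 ± 7.62 CPM (log2 0.29). Ddb1, an adaptor of the ligase that marks Cdt1 for destruction, was 313 ± 24.05 against 249 ± 25.5 CPM (log2 0.33). Skp2 and Cul1, which belong to another such ligase, differed by 0.30 and 0.25. Geminin and the gene it restrains thus had differences of 0.29 and 0.17, with standard errors of 0.11 and 0.12.

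Among the relatives of the MCM genes, Mcm8, which acts in recombination, was 34.1 ± 0.519 CPM in Ythdc1 KO and 26.8 ± 0.443 CPM in wild type (log2 0.35, edgeR adjusted p = 0.317), while its partner Mcm9 was 21.3 ± 2.20 against 22.3 ± 1.81 CPM (log2 -0.07). Mcm3ap differed by 0.35 and Mcmbp, which binds the ring subunits, by 0.29. In the fork and checkpoint list 11 of 12 genes were higher by a median of 0.16, with the fork protection partners Timeless (0.36) and Tipin (0.32), and Rad17 (0.25) and Rfwd3 (0.27), having the smallest p.

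The E2F and RB list was mixed, with 12 of 18 genes higher and a median of 0.13. E2f8, a repressor, was 32.9 ± 6.01 against 22.6 ± 1.90 CPM (log2 0.54) and E2f2, an activator, 26.0 ± 2.96 against 18.7 ± 1.75 CPM (log2 0.48). Tfdp1, the partner of E2F factors, was 343 ± 75.3 against 247 ± 25.4 CPM (log2 0.47), and E2f5, a factor that works with the RB relatives, was 11.5 ± 0.432 against 14.6 ± 1.40 CPM (log2 -0.34). Another list held S phase cyclins, their kinases, CDK inhibitors, Cdc25a, Mki67 and Pcna. In it, 9 of 11 tested genes were higher, and the list median was 0.16. The 2 lower genes were the inhibitors Cdkn1b (log2 -0.18) and Cdkn1c (log2 -0.50), while the inhibitor Cdkn1a was among the higher genes (log2 0.21). Ccna2 was 167 ± 9.24 against 121 ± 11.2 CPM (log2 0.46, edgeR adjusted p = 0.270), Ccne2 35.1 ± 4.94 against 25.2 ± 1.84 CPM (log2 0.48) and Cdk1 211 ± 16.3 against 164 ± 16.5 CPM (log2 0.37). Cdc25a had a log2 difference of 0.16. All ± values are SDs over 3 samples.

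**Figure D5:**
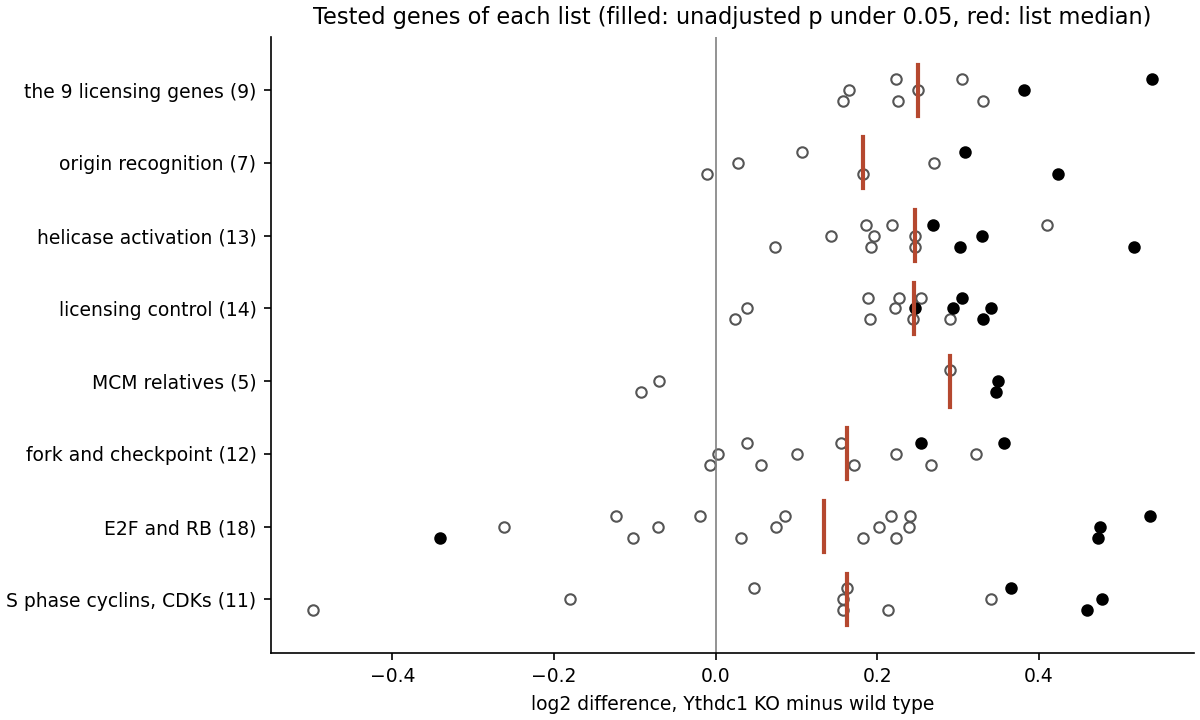
Log2 difference between Ythdc1 KO and wild type (x axis) of every tested gene in the set and in 7 lists of other genes (rows, with the number tested), with filled points for an unadjusted p under 0.05 and red bars for list medians. The medians lie between 0.13 and 0.29, and E2f5 is the filled point below 0.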

How the data were processed

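RNA-seq of HSCs sorted from bone marrow was taken from the gene-level table that the authors deposited. Per the file headers and the labels, its values are raw read pair counts, which featureCounts 2.0.1 assigned to GENCODE vM23 exons of mm10 without strand. The paper names Hisat2 as the aligner. The cDNA was amplified from directly lysed cells, so counts include copies of the same molecule, and precision is limited beyond counting error. All 12 columns were matched to the labels by title. Counts of both libraries of a sample number were summed, giving 3 samples per genotype. This was done because libraries of a number were more alike than others of their genotype. The correlations of deviations from the genotype mean were 0.061 to 0.465 against -0.543 to -0.195. Subtracting that mean lowers correlations within a genotype, so the negative values are partly built in.

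Genes were tested with edgeR 4.0.16 in R 4.3.3 (filterByExpr at its defaults of 10 counts and 15 in total, TMM scaling, robust quasi-likelihood fit), with Benjamini-Hochberg adjustment over 18234 genes and a threshold of 0.05. CPM used TMM-scaled library sizes. TPM used the exon length in the table. The script was tested on simulated data of the same size, which recovered 9.95% of the 1.5-fold, 46.8% of the 2-fold and 88.4% of the 4-fold changes, with 3.67% of all calls false. Each simulated gene took the average spread for its level, without library pairs or shifts shared by a sample. No change under 1.5-fold was simulated, so these shares may not hold for the real counts.

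The text names the 9 genes of the set, Ythdc1, up to 4 genes per list with the smallest unadjusted p, the 5 genes nearest to the ring profile (root mean square difference, mean CPM of at least 10, 0.01 CPM added) and 3 microRNA precursors. Marker genes of other cells were named after their values were seen. The members and the lists were chosen with earlier results of these data known. Alternatives were limma 3.58.1 (voomLmFit), DESeq2 1.42.0, other scaling and filters, the 12 libraries as separate samples, a replicate block and leaving out each sample.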

Additional observations from a re-analysis of the deposited data

How the results depend on the processing

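Over 16 alternatives, the fitted differences of the 9 licensing genes kept their direction in 143 of 144 values, the exception being Mcm7 without KO176 (-0.00224, with a range of -0.00224 to 0.32 when each sample was left out in turn). The median difference was 0.14 to 0.37. No licensing gene was called in the main test, and 2 were, Mcm4 and Mcm10, with the 12 libraries as separate samples (edgeR adjusted p = 0.0251 and 0.00708) and with a replicate block on the digit of the library (0.0284 and 0.0108). Those fits count both libraries of a number as independent. Libraries of the other genotype correlated at -0.217 to 0.315 (median 0.059) with the same digit and at -0.233 to 0.226 (median -0.045) with the other digit. Whether the digit pairs samples was not tested. With the sample number as a random effect in limma, the adjusted p was 0.231 and 0.0681. Over all 16 alternatives it was 0.0251 to 0.737 for Mcm4 and 0.00708 to 0.668 for Mcm10.

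The main test called 16 genes higher and 9 lower in Ythdc1 KO. These counts moved to 347 and 404 with separate libraries, 328 and 389 with the replicate block, 42 and 75 with voomLmFit, 83 and 124 with DESeq2, 35 and 50 with the lower and higher sample numbers as a covariate, 28 and 45 without a filter, 3 and 0 with a minimum count of 50, 10 and 6 with upper quartile scaling and 10 and 5 with the legacy fit. When a sample was left out, 1 to 30 genes were called higher and 0 to 51 lower, with 1 and 0 without WT178, 2 and 0 without WT207, 5 and 1 without WT180, 10 and 0 without KO177, 19 and 8 without KO176 and 30 and 51 without KO209. Apart from the settings named, the cause was not tested. Mcm10, the least expressed of the 9 genes, had 851 to 1621 counts per library.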
